A study of Arabidopsis thaliana with 12 samples.

Results

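Roots of agb1 and WT seedlings were compared after 4 h of salt, with 3 arrays for each genotype, so that 6 of the 12 arrays of the series enter the comparison directly. The arrays were chosen by their labels, agb1-3 NaCl 4 h against Col-0 NaCl 4 h. The line agb1-3, called agb1 here, is 1 T-DNA insertion allele of AGB1 in the Col-0 background, and Col-0 is the WT. Seedlings of both genotypes were grown for 7 d on half-strength MS agar at 22 °C under a 16 h light and 8 h dark cycle and were placed in MS liquid with 150 mM NaCl. Roots were detached after 4 h in the groups compared and at 0 h in the agb1 and WT groups that serve as a baseline. The design text speaks of independent experiments, and each replicate number is 1 of 3. The labels give the baseline as 0 h of salt, whereas the study's methods describe controls kept for 4 h in medium without NaCl, so that a handling time common to the groups cannot be told from the files. A root is a mixture of tissues, so that fewer cells of a type and less RNA per cell cannot be told apart.

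AGB1 is the only Gβ subunit of the heterotrimeric G protein of Arabidopsis. Together with a Gγ subunit it carries signals from receptor kinases at the plasma membrane, and mutants that lack it are known for weaker immune responses to microbial patterns and for sensitivity to salt. In roots, salt brings osmotic stress and excess sodium. Known responses are the making of abscisic acid (ABA), the synthesis of protective late embryogenesis abundant (LEA) proteins, ion transport and the deposition of suberin, a polyester of fatty acids, glycerol and ferulate that seals the endodermis against uncontrolled flow of water and ions.

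All levels below are log2 signals, background-corrected intensities scaled to each array's 75th percentile, and a difference of 1 is a change of 2-fold. The number of arrays limits the precision. Over the 12 arrays this percentile ranged over intensities of 1772 to 3582, and 74.1% to 76.1% of the spots were well above background. AGB1 (AT4G34460) itself had log2 signals of 0.88, 0.39 and 0.67 on the agb1 arrays at 4 h, against 1.58, 1.32 and 1.26 on the WT arrays. Its groups did not overlap, though how many of all genes tested lay apart was not counted. The difference of agb1 minus WT for AGB1 was -0.74 (standard error 0.19, adjusted p = 0.112 in limma). These are the values of the brighter of its 2 probes. The other AGB1 probe, also well above background on all 12 arrays, had log2 signals of -0.94, -1.28 and -1.32 in agb1, against -1.29, -1.36 and -1.31 in WT, and was not lower in agb1. The other 8 genes tested for G protein subunits and RGS1 differed by -0.14 to 0.33 and none was called. Of the markers chosen for tissues, none of 4 root hair, 5 endodermis, 5 stele and 4 general root markers was called, nor 1 root cap and 9 shoot markers. All of them were well above background on the 6 arrays. The summed level of the shoot markers was 3.86 to 4.58 on the agb1 arrays and 3.37 to 4.95 on the WT arrays, and that of the endodermis markers was 4.64 to 5.56 in agb1 and 4.82 to 5.23 in WT. The summed level of the root hair markers was 1.28 to 1.69 in agb1 and 1.09 to 3.22 in WT, highest on WT replicate 3. The sum of the general root markers was 7.2 to 7.3 in agb1 and 6.91 to 7.15 in WT, without overlap. For the stele markers it was 3.37 to 3.7 in agb1 and 3.18 to 3.39 in WT. Of the shoot markers, RBCS1A and RBCS2B were lower on every agb1 array than on any WT array. They differed by -1.26 (adjusted p = 0.225) and -1.4 (adjusted p = 0.13), and the median over the 9 shoot markers was 0.1. Whether tissue make-up differed was not tested.

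After 4 h of salt, 261 of 25207 genes tested (1.04%) had lower levels in agb1 roots at an adjusted p below 0.05, relative to WT, and 155 (0.615%) were higher. At an unadjusted p below 0.05 and at least 2-fold, 630 genes (2.5%) were lower and 303 (1.2%) higher. Among the genes called at the adjusted p, which are the ones meant by lower and higher calls below, decreases were the larger changes. Of the lower calls 232 were at least 2-fold and 114 at least 4-fold, and of the higher calls 89 and 22. In all 261 lower and all 155 higher calls the agb1 and WT arrays at 4 h did not overlap, so that such a gap sets no called gene apart. The median log2 difference was -1.83 over the lower calls and 1.15 over the higher calls, whereas it was 0.05 over all genes tested. Of the 25207 genes tested 10765 were below 0, to be set beside the counts of list members below 0. Unless called unadjusted, p-values come from limma and carry the Benjamini-Hochberg adjustment for the 25207 genes.

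These counts depend on the treatment of dim probes, on single arrays and on the groups that share the estimate of the spread. That estimate came from all 4 groups, the 0 h arrays included. The 6 arrays at 4 h alone gave 78 lower and 16 higher calls. With another background correction (normexp), 13 of the lower and 7 of the higher calls were also below an adjusted p of 0.05, and 43 of the lower calls were no longer below 0. This correction started from median spot signals and added an offset of 50 to every intensity. How much of the change at dim probes comes from the offset was not tested. With each of the 12 arrays left out in turn, 106 of the lower and 30 of the higher calls stayed below 0.05 every time, and all 261 and 155 kept their sign. Where a gene below is said to hold without any 1 array, it is among these. For the genes and list medians given, the value with normexp follows where it differs by more than 1.5 times.

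The difference between agb1 and WT was also measured at 0 h, on 6 other arrays whose means do not enter the 4 h difference. The spread used for both tests was shared. At 0 h, 186 of the 261 lower calls were also below 0 and 138 of the 155 higher calls above 0. At an unadjusted p below 0.05 at 0 h these were 100 and 72, and over all genes tested 10.4% and 8.94% were lower and higher at that level. At an adjusted p they were 45 and 20, against 325 lower genes (1.29%) and 149 higher genes (0.591%) among all tested. The median difference at 0 h was -0.40 over the lower calls and 0.44 over the higher calls. The genes called at 4 h therefore included some that already differed before salt and many whose difference at 0 h was small, as the plot of both differences shows.

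**Figure D1:**
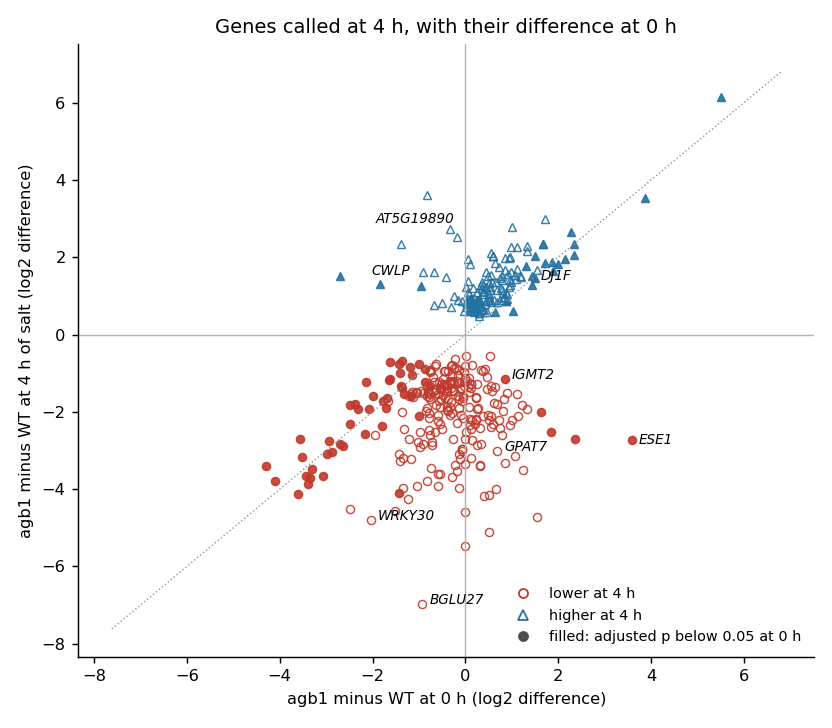
Difference of agb1 minus WT on the log2 scale at 0 h (x axis) and at 4 h of salt (y axis) for the 261 genes called lower (circles) and the 155 called higher (triangles) at 4 h. Filled symbols are also below an adjusted p of 0.05 at 0 h, and the dotted line marks equal differences. ESE1 and CWLP lie on opposite sides of 0 at the 2 times, whereas DJ1F lies near the line.

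Genes of immune and stress signalling were among the lower calls. In the WRKY family, transcription factors many of which act in defence and wounding, 6 of 58 members tested were lower and none was higher. The median difference was -0.30 (-0.18 with normexp), 46 members were below 0, and at 0 h the median was already -0.44. In a list of 37 early genes of pattern-triggered immunity, which are switched on within the first hours after a microbial pattern is sensed, 6 were lower and none was higher, with a median of -0.49 and 35 members below 0. Within the 3 slides, each of which carried the agb1 and WT arrays of 1 replicate number, the medians were -0.37, -0.36 and -0.30 for the WRKY genes and -0.55, -0.66 and -0.36 for the immunity genes.

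WRKY30 (AT5G24110) had log2 signals of -4.95, -5.91 and -6.51 in agb1 roots, against -0.56, -1.80 and -0.58 in WT roots. The groups lay far apart, with a difference of -4.81 (standard error 0.50, adjusted p = 0.00295). WRKY41 (-2.51), WRKY28 (-1.77), WRKY8 (-1.75), WRKY71 (-1.15) and WRKY11 (-0.69) were the other members called. Of these WRKY71 and WRKY11 were already lower in agb1 at 0 h, by -1.63 (adjusted p = 0.0153) and -1.36 (adjusted p = 0.00455). WRKY30 held without any 1 array. With normexp WRKY30, WRKY41, WRKY28, WRKY8 and WRKY71 differed by -2.85, -0.47, -0.65, -0.21 and -0.41. The count of WRKY genes fell to 1 when agb1 4 h replicate 3, WT 4 h replicate 1 or 2, or WT 0 h replicate 1 or 3 was left out, to 2 when agb1 4 h replicate 2 or else WT 0 h replicate 2 was, and was 0 with normexp and 10 with the replicate block.

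Among the immunity genes, CYP81F2 (AT5G57220), a cytochrome P450 that hydroxylates indole glucosinolates and is needed for callose deposition, had log2 signals of -3.96, -4.52 and -4.24 in agb1, against -0.99, -2.28 and -1.85 in WT. It was lower by -2.53 (standard error 0.30, adjusted p = 0.00463). YLS9, also known as NHL10, a membrane protein gene induced during defence, had log2 signals of -0.54, -0.80 and 0.04 in agb1, against 1.25, 1.58 and 1.48 in WT, a difference of -1.87 (standard error 0.26, adjusted p = 0.00955). FRK1, the receptor-like kinase whose mRNA is a common readout of the flagellin response, had log2 signals of -3.47, -3.21 and -3.88 in agb1, against -2.35, -1.49 and -1.73 in WT. FRK1 was lower by -1.67 (standard error 0.24, adjusted p = 0.0126). PUB24, a ubiquitin ligase that dampens pattern-triggered immunity, had log2 signals of -1.63, -1.41 and -1.06 in agb1, against 0.05, 0.11 and -0.24 in WT, and was lower by -1.34 (standard error 0.17, adjusted p = 0.00684). PROPEP2 (-1.46) and PROPEP3 (-1.36), which encode precursors of the Pep danger peptides, were the other members called. The members lower in agb1 thus ranged from a receptor kinase and peptide precursors to an enzyme and a negative regulator. CYP81F2, YLS9 and PUB24 held without any 1 array, and FRK1 (adjusted p = 0.0533) and PROPEP2 (adjusted p = 0.0566) did not hold without agb1 4 h replicate 3. PROPEP3 was lost without each of 8 arrays (adjusted p up to 0.124). None of the 6 was called with normexp, where CYP81F2, FRK1 and PROPEP2 differed by -1.61, -0.99 and -0.91.

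At 0 h none of these 6 genes was called. CYP81F2 and PROPEP2 differed by -0.97 and -0.95 there (adjusted p = 0.162 and 0.0811), and FRK1, PUB24, YLS9 and PROPEP3 by -0.34 to 0.06. The median over the immunity list at 0 h was -0.32.

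**Figure D2:**
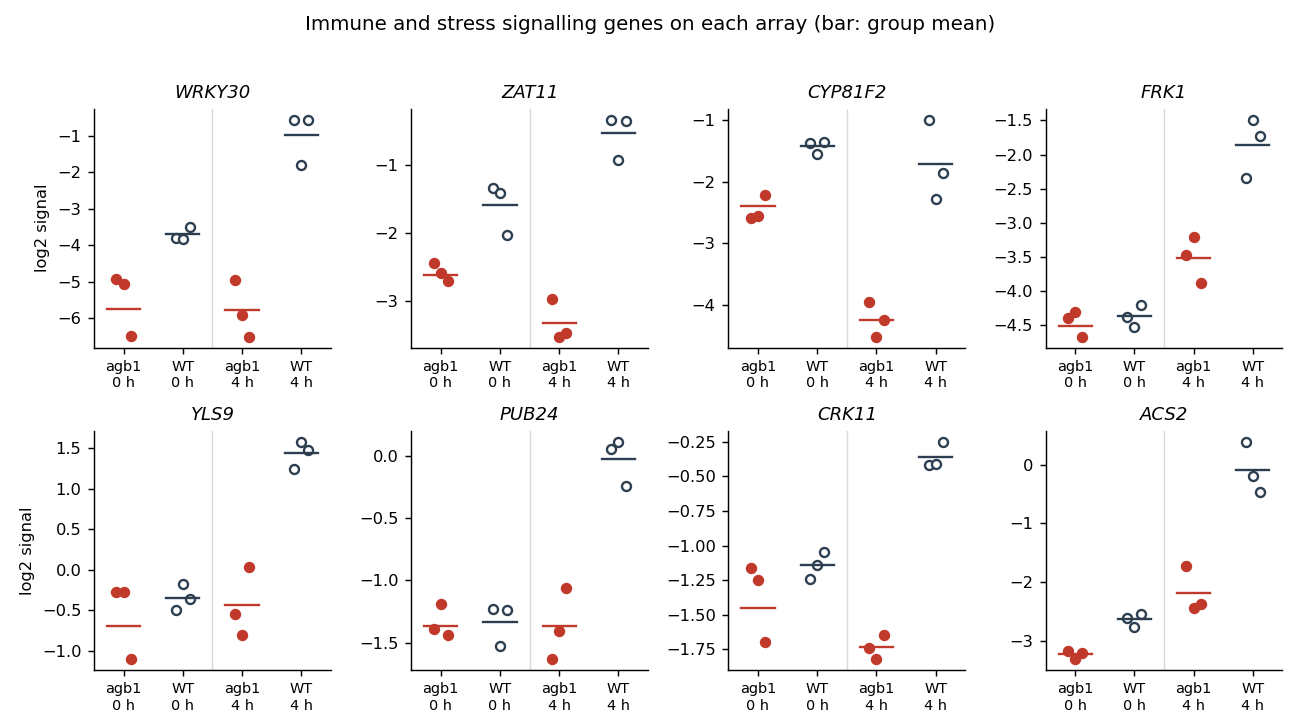
Log2 signal of 8 signalling genes (y axis, scaled for each gene) on every array, in agb1 (filled) and WT (open) roots at 0 h and at 4 h of salt. Bars are group means. At 4 h the agb1 arrays lie below all WT arrays in each panel, as for all 261 lower calls.

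Some receptor genes were lower as well. Of 16 cysteine-rich receptor-like kinases (CRKs) tested, a family with extracellular cysteine motifs whose members act in stress and defence, 5 were lower and none was higher. Their median was -0.35 (-0.16 with normexp), with 13 members below 0, and at 0 h it was already -0.53. CRK11 (AT4G23190) had log2 signals of -1.74, -1.82 and -1.65 in agb1, against -0.42, -0.41 and -0.25 in WT, so that the replicates of each group lay close together and the groups apart (difference -1.37, standard error 0.14, adjusted p = 0.00294). Its neighbour CRK10 was lower by -1.38 (standard error 0.19, adjusted p = 0.00933). Next to CRK10 in the TAIR10.1 order stands EP1, also named CRK9, which was not well above background on any agb1 array at 4 h and was at least 7.27-fold lower (adjusted p = 0.00342). Such a lower limit is the WT mean over the dimmest signal that counts as well above background. CRK31 was at least 8.03-fold lower (adjusted p = 0.00446), CRK36 was lower by -2.69 (adjusted p = 0.0443, and 0.0593 with the replicate block) and CRK2 by -0.94. CRK17, listed as EMB1290, was lower by -2.95 (standard error 0.29, adjusted p = 0.00224). EP1 and EMB1290 are not in the list of 16, which was matched by name. Sequences are alike in this family, so that a probe may also bind a related mRNA. CRK10, CRK11, CRK31, EP1 and EMB1290 held without any 1 array, whereas CRK36 and CRK2 were lost without each of at least 8 arrays, with adjusted p up to 0.154 and 0.110. With normexp no CRK was called and CRK31, CRK36, EP1 and EMB1290 differed by -0.22, -0.54, -0.29 and -0.59.

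Other receptor and kinase cascade genes were chosen for mention after their values were seen. RLP54, a receptor-like protein gene, had log2 signals of -1.16, -1.53 and -1.3 in agb1, against 0.02, -0.07 and 0.06 in WT. It differed by -1.34 (standard error 0.13, adjusted p = 0.00261), was among the 13 lower calls also made with normexp, and was lower by -0.76 at 0 h (adjusted p = 0.0441). RLP38, another receptor-like protein gene, was not well above background on any agb1 array and was at least 14.1-fold lower (adjusted p = 0.00705). SNC4, an atypical receptor-like kinase gene of immunity, differed by -1.29 (standard error 0.13, adjusted p = 0.00293). MKS1, whose product is a substrate of MAP kinase 4, differed by -1.41 (standard error 0.17, adjusted p = 0.00522). AT2G33780 (MVQ2), whose product is listed as a target of MAP kinases 3 and 6, was at least 12.5-fold lower (adjusted p = 0.000986). Among named or numbered loci AT1G51920 gave the largest such limit, at least 14.9-fold (adjusted p = 0.000128), and AT1G57630 and AT5G44990 were at least 11.8-fold and 8.84-fold lower. RLP54, SNC4 and MKS1 were well above background on all 6 arrays, and the others on the 3 WT arrays only. With normexp MKS1 and SNC4 differed by only -0.09 and -0.35, AT2G33780 by -0.72, RLP38 by -0.73, and AT1G51920, AT1G57630 and AT5G44990 by -0.83, -0.54 and -0.39.

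Transcription factors outside the WRKY family were also among the lower calls. ZAT11 (AT2G37430), a zinc finger repressor gene of stress responses, had log2 signals of -2.98, -3.53 and -3.47 in agb1, against -0.33, -0.92 and -0.35 in WT. Its difference was -2.79 (standard error 0.24, adjusted p = 0.00158), and it was also called with normexp and without any 1 array. ZAT11 was the only call among 20 CBF, DREB and ZAT genes tested. NAC036 was lower by -2.70 (standard error 0.30, adjusted p = 0.00342) and NAC042 (-1.41) was the other call among 75 NAC genes. NAC042 was lost without each of 8 arrays (adjusted p up to 0.125). With the replicate block NAC058 (-1.17) was lower and NAC103 (0.99) higher as well. The neighbouring ERF genes ESE1, named for its induction by ethylene and salt, and TDR1, also known as ERF98, were lower by -2.72 (adjusted p = 0.00509) and -2.70 (adjusted p = 0.00705). They are not in the AP2/ERF list, where none of 53 genes tested was called at a median of -0.14. With the replicate block 1 of the 53 was lower. The log2 signals of ESE1 were -5.74, -4.25 and -5.15 in agb1 at 4 h, against -1.97, -2.49 and -2.51 in WT, whereas at 0 h agb1 was the higher group by 3.58 (adjusted p = 0.00496). TDR1 differed by -0.01 at 0 h (adjusted p = 0.989). Of 24 genes of ethylene synthesis and response, ACS2 was called, and with the replicate block also ERF5 (-0.72, adjusted p = 0.0285, against 0.122 without the block). ACS2, an ACC synthase of the committed step of ethylene synthesis, had log2 signals of -1.72, -2.44 and -2.38 in agb1, against 0.39, -0.20 and -0.47 in WT, a difference of -2.08 (standard error 0.25, adjusted p = 0.00463) that held without any 1 array. With normexp NAC036, NAC042, ESE1 and TDR1 differed by -1.43, -0.52, -1.25 and -1.63.

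Indole glucosinolates are sulfur-rich defence compounds made from tryptophan. Of 19 genes for them and for the phytoalexin camalexin, 3 were lower and none higher, the median difference was -0.62 and 18 members were below 0. The median was -0.29, -0.41 and -1.06 within the slides of replicates 1, 2 and 3, and it was -0.14 when WT 4 h replicate 3 and -1.01 when WT 4 h replicate 1 was left out. The count of 3 was 1 with normexp and 2 to 4 with each array left out. Before salt the same list had a median of 0.70. Beside CYP81F2, MYB51, a transcriptional activator of the pathway, was lower by -1.21 (standard error 0.20, adjusted p = 0.0216). IGMT2, a methyltransferase that acts on the product of CYP81F2, had log2 signals of 0.62, 0.80 and 0.88 in agb1 at 4 h, against 1.78, 1.79 and 2.15 in WT. IGMT2 differed by -1.14 (standard error 0.14, adjusted p = 0.00474), and at 0 h by 0.85 in the other direction (adjusted p = 0.0333). IGMT3, its neighbour and not in the list, was lower by -0.95 (adjusted p = 0.0133). IGMT2 and CYP81F2 held without any 1 array, and MYB51 was lost when agb1 4 h replicate 1 or 2, or else WT 4 h replicate 2 or 3, was left out, with an adjusted p of at most 0.0763.

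Among the lists with 10 or more genes tested, the suberin genes had the median farthest from 0, with a median difference of -1.71, 19 of 19 members below 0, 8 lower calls and none higher. At an unadjusted p below 0.05 and 2-fold, 15 of the 19 were lower. The called members were the acyltransferase genes GPAT7 and GPAT5, the transporter genes ABCG6 and ABCG1, the feruloyl transferase gene RWP1 (also known as ASFT) and the transcription factor genes MYB41, MYB39 and MYB9. Members not called included CYP86B1, a hydroxylase of very long acids, at -2.14 (adjusted p = 0.0604), KCS2, an elongase, at -1.76 (adjusted p = 0.0559), ABCG20 at -2.06 (adjusted p = 0.107) and CYP86A1 at -0.78 (adjusted p = 0.508).

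**Figure D3:**
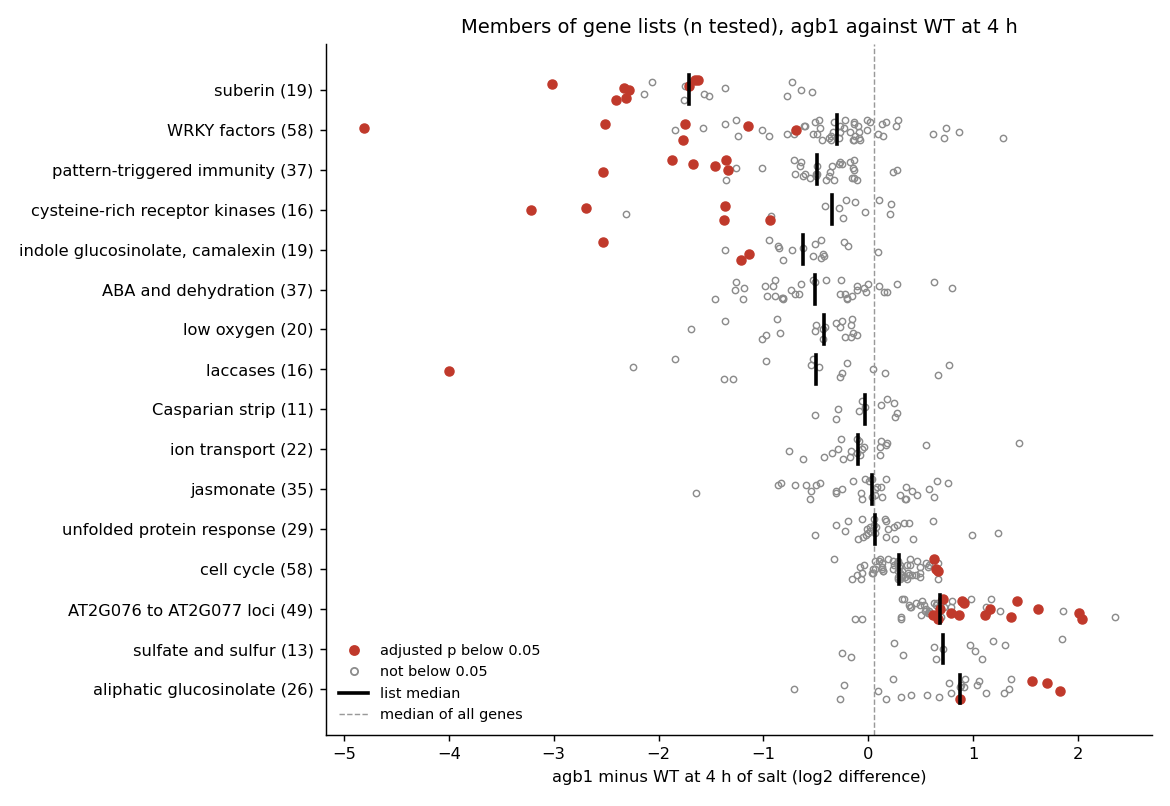
Difference of agb1 minus WT on the log2 scale after 4 h of salt (x axis) for every tested member of 16 gene lists (rows, number tested in parentheses). Filled points are below an adjusted p of 0.05, bars are list medians and the dashed line is the median of all genes, 0.05. All suberin genes lie left of 0, and the Casparian strip, ion transport and unfolded protein response genes lie around it.

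GPAT7 (AT5G06090) had log2 signals of -2.51, -0.98 and -2.11 in agb1, against 0.34, 0.98 and 2.14 in WT, a difference of -3.02 (standard error 0.53, adjusted p = 0.0271). GPAT5 (AT3G11430), which makes the glycerol esters of suberin, had -1.81, -0.50 and -0.52 in agb1, against 0.70, 1.3 and 2.16 in WT (difference -2.33, standard error 0.42, adjusted p = 0.0317). ABCG6, a half-size transporter needed for suberin, had 0.35, 1.96 and 0.97 in agb1, against 2.76, 3.52 and 4.22 in WT (difference -2.41, standard error 0.45, adjusted p = 0.0341). In these 3 genes replicate 2 was the highest agb1 array and replicate 3 the highest WT array, and no agb1 array reached a WT array. MYB41 (AT4G28110), whose overexpression is known to cause ectopic suberin, had -1.66, -0.87 and -1.79 in agb1, against 0.80, 1.35 and 0.47 in WT (difference -2.31, standard error 0.38, adjusted p = 0.0216). MYB39, also named SUBERMAN, had -3.17, -2.23 and -3.78 in agb1, against -0.92, -0.15 and -1.26 in WT (difference -2.28, standard error 0.39, adjusted p = 0.0250). Both regulators were highest in replicate 2 of each genotype. MYB9, ABCG1 and RWP1 were lower by -1.71, -1.65 and -1.62 (adjusted p = 0.0163, 0.0318 and 0.0445), and MYB9 by -1.10 with normexp.

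At 0 h the median difference of the suberin genes was 0.64. None of the 8 was called there, and they differed by -0.18 (MYB39) to 0.95 (GPAT5, adjusted p = 0.309). Between 0 h and 4 h the list had a median change of 0.11 in agb1 and of 2.51 in WT. These changes share the 4 h arrays with the 4 h difference and are given as values only. The list median within the slides was -1.81, -1.43 and -1.96, and over all alternatives it lay between -2.05 and -1.48. With the replicate block 15 of the 19 genes were lower at an adjusted p below 0.05. The count of 8 was 0 with normexp, and also 0 when agb1 4 h replicate 3 or else WT 4 h replicate 2 was left out, it was 1 without agb1 4 h replicate 1, 2 without any of the WT 0 h arrays and 3 without WT 4 h replicate 3.

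**Figure D4:**
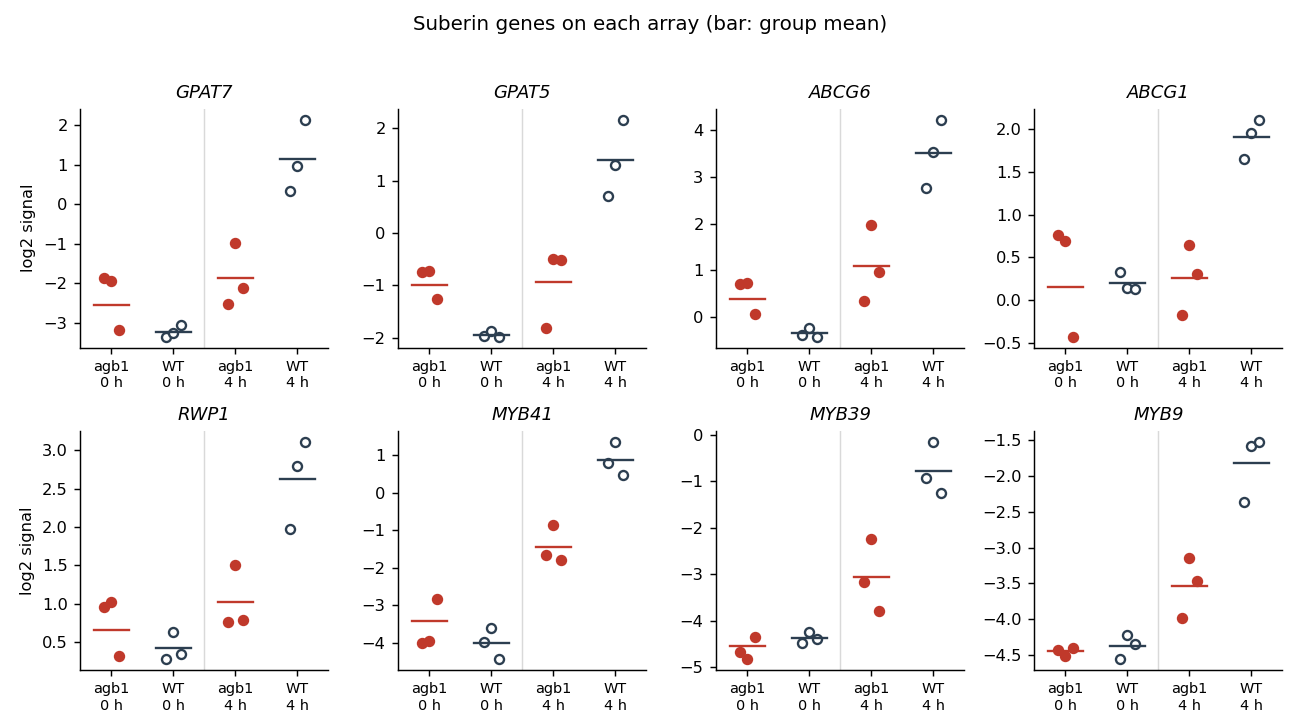
Log2 signal of the 8 suberin genes called lower (y axis, scaled for each gene) on every array, in agb1 (filled) and WT (open) roots at 0 h and at 4 h of salt, with bars for group means. At 4 h all agb1 arrays lie below all WT arrays, as for all 261 lower calls. At 0 h agb1 lies at or above WT for most of the 8 genes.

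The Casparian strip, the lignin band that shares the endodermis with suberin, had no call. None of its 11 genes passed the test, the median difference was -0.03, and CASP1 and CASP2, scaffold proteins of the strip, differed by 0.18 and -0.03. Other wall genes were lower in small numbers. LAC12, of the laccases that can couple lignin monomers, was the only call among 16 laccases, whose median was -0.50. With the replicate block 3 laccases were lower, LAC12, LAC5 (-2.24, adjusted p = 0.00558) and LAC7 (-0.98, adjusted p = 0.0300). The list of class III peroxidases held only 6 genes tested, matched by name, and does not stand for the whole family. Of these PRX52 and PER4 were lower by -3.62 (adjusted p = 0.0152) and -2.56 (adjusted p = 0.0176). PER4 had log2 signals of -0.88, -2.44 and -2.74 in agb1, against 0.55, 0.67 and 0.41 in WT, and was already lower at 0 h by -2.17 (adjusted p = 0.0492). Its neighbour AT1G14550 was lower at both times, by -3.87 at 4 h (adjusted p = 0.00395) and by -3.38 at 0 h (adjusted p = 0.0162). Among 27 phenylpropanoid and lignin genes, CCOAMT (-2.44), a methyltransferase for caffeoyl-CoA, and MYB15 (-1.97, adjusted p = 0.0268) were lower. CCR2 (AT1G80820), a term of this list that was not matched to a locus, was also called lower. ABCG16, a half-size transporter gene outside the suberin list, was lower by -3.01 (standard error 0.40, adjusted p = 0.00837), with -1.61, -0.37 and -1.43 in agb1, against 1.66, 2.13 and 1.83 in WT. Of 29 XTH genes, which remodel xyloglucan in the wall, 3 were lower, the touch-induced TCH4 (-1.24, adjusted p = 0.0399) and XTR6 (-0.98, adjusted p = 0.0325), and XTH29, at least 3.08-fold lower (adjusted p = 0.00369) and not well above background in agb1. XTH15 was higher with the replicate block (0.70, adjusted p = 0.0492). PRX52 was lost without WT 4 h replicate 2 (adjusted p = 0.0651), PER4 when agb1 4 h replicate 2 or 3, or else WT 4 h replicate 2, was left out, and LAC12, CCOAMT, MYB15, CCR2, TCH4 and XTR6 without 6 or more of the 12 arrays. With normexp PRX52 differed by -1.44, CCOAMT by -1.28, AT1G14550 by -2.55 and XTH29 by 0.75, a reversed sign.

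The genes of the Em proteins, small LEA proteins best known from maturing seeds, were both lower. GEA6 (EM6) had log2 signals of -5.18, -6.16 and -5.62 in agb1, against -1.82, -2.48 and -0.17 in WT, a difference of -4.16 (standard error 0.81, adjusted p = 0.0423). EM1 had -3.41, -3.24 and -3.69 in agb1, against -0.79, 0.14 and -1.22 in WT, a difference of -2.82 (standard error 0.34, adjusted p = 0.00474). EM1 held without any 1 array, whereas GEA6 was lost without each of 10 of the 12 arrays (adjusted p up to 0.136), and with normexp GEA6 differed by -1.91. The neighbour of GEA6, the protein phosphatase 2C gene PP2C5, was lower by -3.98 (adjusted p = 0.0466) and was well above background on 1 agb1 array. PP2C5 was lost without each of 9 arrays (adjusted p up to 0.166). This pair, like the PP2-B13 and PP2-B14 pair of phloem protein genes (-3.38 and -3.36), belonged to 17 runs of adjacent loci that were lower together, with 38 loci in all. The higher calls held 4 such runs with 9 loci. How often adjacent loci go together over all genes was not counted. Where neighbours are alike in sequence, their probes may not be independent. The longest run held the 4 loci AT5G22520, AT5G22530, AT5G22540 and AT5G22545, which the files and RefSeq do not name. AT5G22540 had log2 signals of -6.34, -5.76 and -6.70 in agb1, against -2.69, -2.74 and -3.02 in WT (difference -3.45, standard error 0.31, adjusted p = 0.00163). With normexp PP2C5, PP2-B14, AT5G22530, AT5G22540 and AT5G22545 differed by -1.06, -0.87, -1.05, -1.20 and -0.47.

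Genes of detoxification and metabolism completed the lower calls. Of 37 glutathione transferase genes of the tau and phi classes, whose enzymes conjugate reactive compounds, 4 were lower and 1 higher, with a median of -0.06 (-0.11 with normexp), and with the replicate block 5 were lower and 2 higher. GSTU12 had log2 signals of -2.74, -3.21 and -4.02 in agb1, against -0.10, -0.67 and 0.08 in WT (difference -3.10, standard error 0.37, adjusted p = 0.00467). GSTF6, a bright gene, had 1.42, 1.36 and 1.55 in agb1, against 3.25, 2.62 and 3.32 in WT (difference -1.62, standard error 0.19, adjusted p = 0.00453). Both held without any 1 array and were also called with normexp. GAD4, a glutamate decarboxylase that makes γ-aminobutyrate, was lower by -3.21 (standard error 0.45, adjusted p = 0.0102) and by -1.20 with normexp. The adjusted p of GAD4 was 0.0530 without agb1 4 h replicate 3. BGLU27, a β-glucosidase gene, had -6.55, -8.31 and -10.05 in agb1, against -0.57, -2.15 and -1.31 in WT. Only 1 agb1 array was well above background for it, and agb1 minus WT was -6.96 (standard error 0.95, adjusted p = 0.00933) or, with normexp, -2.91.

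Several gene lists for responses that salt is known to engage had no call. The ABA and dehydration list does not stand for every gene of these responses, and lower calls outside it were not sorted by response. This list did not hold the Em genes, which were lower, and its terms RAB18 and HB-7 were not matched to loci. Of its 37 genes tested none was called, 31 lay below 0 and the median was -0.51 (-0.28 with normexp). At an unadjusted p and 2-fold, 5 of them were lower. The phosphatase gene HAI2 (-1.46, adjusted p = 0.132), LEA4-5 (-1.27, adjusted p = 0.157) and GolS2 (-1.26, adjusted p = 0.161) differed most among members below 0. At 0 h the list median was 0.73, and its change from 0 h to 4 h had a median of 1.40 in agb1 and 2.77 in WT. Of 22 ion transport genes none was called at a median of -0.10. CAX3, a vacuolar calcium exchanger, was lower with the replicate block (-0.62, adjusted p = 0.0398, against 0.371 without it), and the sodium exporter SOS1 and the sodium transporter HKT1 differed by -0.04 and 0.55. Of 29 genes of the unfolded protein response none was called at a median of 0.06, with BZIP17 at -0.31 (adjusted p = 0.490) and the chaperone gene BIP3 at 1.24 (adjusted p = 0.500). With the replicate block 1 of them was higher, the transcription factor gene NAC103 (0.99, adjusted p = 0.0162, against 0.0723 without the block). Jasmonate genes had no call among 35 at a median of 0.03 (0.01 with normexp), although their median at 0 h was 0.94. All 20 low-oxygen genes tested were below 0, with a median of -0.42 and no call, and at 0 h their median was -1.13. No member of the root hair, expansin, aquaporin, heat shock, iron uptake or nuclear photosynthesis lists was called.

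The higher calls were smaller and had fewer named genes, 35 against 110 among the lower calls. The largest change at a locus measured on all 6 arrays was that of AT5G19890, which the files and RefSeq do not name. It had log2 signals of 1.63, 2.5 and 2.85 in agb1, against -0.46, -0.36 and -0.43 in WT, a difference of 2.74 (standard error 0.27, adjusted p = 0.00219). At 0 h it was bright in both genotypes, at 4.19 to 4.63 in agb1 and 4.68 to 4.78 in WT. AT5G01740, also unnamed, had -0.51, -0.80 and -0.57 in agb1, against -2.81, -3.16 and -2.91 in WT (difference 2.33, standard error 0.29, adjusted p = 0.00522). IPT3 (AT3G63110), an isopentenyltransferase of the first step of cytokinin synthesis, had -1.08, -1.70 and -1.45 in agb1, against -3.41, -3.29 and -3.36 in WT (difference 1.95, standard error 0.22, adjusted p = 0.00395). At 0 h the IPT3 groups overlapped, at -1.26 to -0.88 in agb1 and -1.47 to -0.73 in WT. IPT3, AT5G19890 and AT5G01740 were 3 of the 7 higher calls also made with normexp. CWLP, a proline-rich wall protein gene, had -0.88, -1.74 and -1.31 in agb1, against -2.33, -2.67 and -2.84 in WT (difference 1.3, standard error 0.23, adjusted p = 0.0260), and at 0 h agb1 was the lower group by -1.83 (adjusted p = 0.0142). CWLP was lost without each of 6 arrays, with an adjusted p of at most 0.0982.

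Aliphatic glucosinolate genes, which make defence compounds from methionine, lay higher in agb1, the opposite of the indole list. This list was chosen after its values were seen, and it gave 4 higher calls and none lower among 26 genes tested, with a median of 0.87 and 3 members below 0. CYP83A1 (AT4G13770), which oxidises the aldoximes of the pathway, had log2 signals of 2.68, 3.12 and 3.65 in agb1, against 1.26, 1.33 and 1.75 in WT (difference 1.70, standard error 0.28, adjusted p = 0.0201). GSTU20, a glutathione transferase coexpressed with the pathway, had 2.15, 2.49 and 3.19 in agb1, against 0.42, 0.28 and 1.63 in WT (difference 1.83, standard error 0.37, adjusted p = 0.0466). IPMI1 and IMD1, enzymes of methionine chain elongation, were higher by 1.56 (adjusted p = 0.0213) and 0.87 (adjusted p = 0.0271). CYP83A1, IPMI1 and IMD1 belong to the core pathway or its side-chain elongation, and the elongation enzyme IPMI2 differed by 1.12 (adjusted p = 0.0634). The list was higher before salt as well, with a median of 1.06 at 0 h, where GSTU20 (2.00, adjusted p = 0.0476) and IMD1 (0.87, adjusted p = 0.0441) were also called. Of 13 sulfate and sulfur genes none was called at a median of 0.71, and 4 were at least 2-fold higher at an unadjusted p below 0.05. SULTR4;2 (0.63) and LSU2 (1.3) were higher with the replicate block. With the replicate block 13 of the 26 aliphatic genes were higher. The count of 4 was 0 with normexp, and also 0 when agb1 4 h replicate 3 or else WT 4 h replicate 1 or 2 was left out, it was 1 without agb1 4 h replicate 2, 2 without any of the WT 0 h arrays and 7 without WT 4 h replicate 3.

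**Figure D5:**
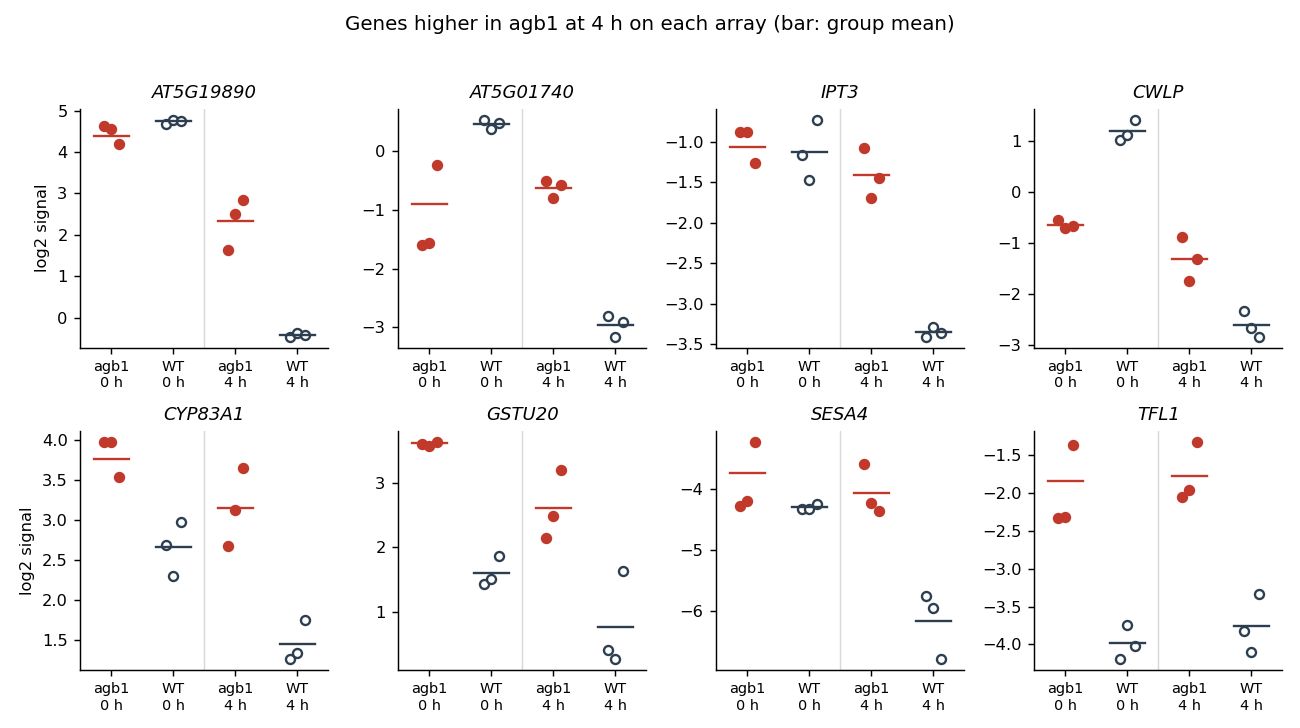
Log2 signal of 8 genes called higher in agb1 at 4 h (y axis, scaled for each gene) on every array, in agb1 (filled) and WT (open) roots at 0 h and at 4 h of salt, with bars for group means. At 4 h the agb1 arrays lie above all WT arrays in each panel, as for all 155 higher calls. CYP83A1, GSTU20 and TFL1 lie higher in agb1 at 0 h too, and CWLP lies lower there.

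TFL1, a regulator of shoot meristems, was higher by 1.96 (standard error 0.30, adjusted p = 0.0155) and by 2.14 at 0 h (adjusted p = 0.0225). TFL1 was lost when agb1 4 h replicate 3 or else WT 4 h replicate 2 was left out (adjusted p up to 0.0651). DJ1F, of the DJ-1 family, had log2 signals of 3.05, 3.24 and 3.58 in agb1, against 1.72, 1.64 and 1.95 in WT, a difference of 1.52 (standard error 0.17, adjusted p = 0.00342) that was 1.43 at 0 h (adjusted p = 0.0115). The 2S albumin genes SESA2, SESA3 and SESA4, storage proteins of the seed that stand side by side, were all higher. SESA4 had -3.58, -4.22 and -4.36 in agb1, against -5.75, -5.96 and -6.79 in WT (4.33-fold, adjusted p = 0.0191). SESA2 was at least 1.97-fold higher (adjusted p = 0.0271) since no WT array was well above background, and SESA3 (adjusted p = 0.0282) was well above background on 2 agb1 arrays and on no WT array, so that no size is given. None of the 3 was called with normexp, or when agb1 4 h replicate 1 or 3 or else WT 4 h replicate 2 was left out. These genes are similar in sequence, so that the probes may not be independent. At 0 h SESA4 differed by 0.56 (adjusted p = 0.442).

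A few genes of cell division were higher. Of 58 cell cycle and replication genes 3 were higher and none lower, the median was 0.29 and 7 members were below 0. They were the mitotic kinase gene AUR1 (0.66, adjusted p = 0.0455, and 0.0537 with the replicate block), the origin recognition gene ORC4 (0.64, adjusted p = 0.0428) and the cyclin gene CYCB3;1 (0.63, adjusted p = 0.0363). In a list of 14 spindle and mitotic kinase genes chosen after their values were seen, which shares AUR1, AUR2, AUR3 and CYCB3;1 with the list of 58, 6 were higher with a median of 0.62, among them ATK5, a kinesin, at 0.62 and EB1C, a microtubule end-binding protein, at 0.66 (adjusted p = 0.0452, and 0.0503 with the replicate block). None of these passed with normexp, and AUR1, ORC4 and CYCB3;1 were lost without each of 8 to 10 of the arrays, with adjusted p up to 0.171. GSR2, a cytosolic glutamine synthetase and one of the brightest higher calls, had log2 signals of 6.1, 5.97 and 5.89 in agb1, against 5.42, 5.02 and 4.74 in WT (difference 0.93, standard error 0.17, adjusted p = 0.0361), and was the only call among 22 nitrate genes. AMT1;3, an ammonium transporter, was higher with the replicate block (0.84, adjusted p = 0.0227, against 0.0547 without the block). GSR2 was lost without each of 8 arrays (adjusted p up to 0.126).

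Loci numbered from AT2G076 to AT2G077, a group noticed in the values, gave 15 of the 155 higher calls and no lower call among 49 tested, with a median of 0.68 and 2 members below 0. Much of this stretch of chromosome 2 is known as a copy of the mitochondrial genome, so that these probes may also bind mitochondrial transcripts, and the 2 sources cannot be told apart. AT2G07777 had log2 signals of -0.23, -0.36 and 0.53 in agb1, against -1.79, -1.89 and -2.51 in WT (difference 2.04, standard error 0.36, adjusted p = 0.0271). Its neighbour AT2G07749 differed by 2.01 (standard error 0.28, adjusted p = 0.00955). The other 13 called loci differed by 0.62 to 1.62. At 0 h the median over the 49 was 0.30. The count of 15 was 25 with the replicate block and 0 with normexp, and fell to between 1 and 9 without any 1 array other than those of agb1 at 0 h, lowest without agb1 4 h replicate 3.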

How the data were processed

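Root RNA of 12 samples was hybridised to 1-colour Agilent arrays. The authors deposited scanner output of Feature Extraction (version 10.7.1.1 in the file headers, 9.1 in the labels), and the deposited intensity used was gProcessedSignal, background-subtracted by the authors' software. Its log2 was taken minus the log2 of each array's 75th percentile, which assumes that overall RNA levels were alike. The brightest probe stood for a locus, and probes well above background on all arrays of at least 1 group were tested (25207). Flagged outlier spots (2 to 28 an array) were left out. Loci were named through RefSeq annotation (TAIR10.1), and probes without a locus keep their ID.

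limma 3.58.1 in R 4.3.3 fitted the 4 group means and adjusted p-values by Benjamini-Hochberg for the 25207 genes, and was tested on simulated data. The agb1 0 h arrays 1 and 2 were nearly identical and were averaged into 1 sample, leaving 11. At 4 h arrays of the same number deviated together (correlations 0.58, 0.35 and 0.37, against -0.44 to 0.13 for different numbers) and lay on the same slide, so that the replicate block and the slide cannot be told apart there. For the genes and lists described, the fit with this block is given where it changes a call or moves a count by over 1.5 times. Whether numbers mark separate cultures rests on the design text. The p-values measure the spread between arrays pooled over the 4 groups, so that the 0 h arrays also enter the standard errors at 4 h.

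Genes to be named were the 20 largest decreases and 15 largest increases among called loci measured on all 6 arrays without overlap of the groups, AGB1, genes the study names, up to 4 called members of each list (3 where a list had no call) and up to 5 bounds in each direction. Not all of these are described, and RLP54, SNC4, MKS1, IGMT3, ABCG16, ESE1, TDR1, CCR2 and the members of lists built later were named after their values were seen, as were further members of the suberin and WRKY lists. Members and lists were chosen with earlier results of these data known. Alternatives were other background correction, scaling, filters, probe choice, samples, blocks and each array left out.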

Additional observations from a re-analysis of the deposited data

Results flagged for a closer look

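The change of the difference between agb1 and WT from 0 h to 4 h of salt was itself tested (limma interaction, Benjamini-Hochberg adjustment over all genes). Among the genes picked by the naming rule above, 7 changed at an adjusted p below 0.05. Those that changed towards lower levels in agb1 were AT5G22520 (-3.70, adjusted p = 0.0279), EMB1290 (-2.87, adjusted p = 0.0497), IGMT2 (-1.99, adjusted p = 0.0183) and LOX3, a lipoxygenase of jasmonate synthesis (-4.02, adjusted p = 0.0296). LOX3 was not called at 4 h (-1.64, adjusted p = 0.0684) and differed by 2.38 at 0 h. Those that changed towards higher levels in agb1 were CWLP (3.13, adjusted p = 0.0183), AT5G01740 (3.71, adjusted p = 0.0183) and AT5G19890 (3.08, adjusted p = 0.0264). Over all genes tested 22 changed towards lower and 23 towards higher levels. Genes named outside the naming rule were not screened for these 7, among them ESE1, whose difference had opposite signs at 0 h and 4 h. The interaction shares its 4 h arrays with the comparison in the report and is not independent of it.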

How the results depend on the processing

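The 261 lower and 155 higher calls, and the 630 lower and 303 higher genes at an unadjusted p below 0.05 and 2-fold, depended on the settings. With normexp they were 13, 7, 223 and 183, so that the lower share of the 2-fold genes was 54.9%, against 67.5%, and the median of all genes was 0.177 in place of 0.05. Without a filter on dim probes the higher calls were 101 and the higher 2-fold genes 502, and with probes well above background on all 6 arrays the higher 2-fold genes were 187. The 6 arrays at 4 h alone gave 78 lower and 16 higher calls, and all 12 arrays as separate samples gave 248 higher calls. The replicate block among the 4 h arrays gave 474 lower and 337 higher calls, and in the 6 arrays alone the replicate block gave 33 and 5. With each array left out the calls were 126 to 297 lower and 35 to 157 higher, and the 2-fold genes 594 to 836 lower and 230 to 524 higher. The lower calls were 155, 171 and 163 without WT 0 h replicates 1, 2 and 3, 139 when WT 4 h replicate 2 was left out and 126 for agb1 4 h replicate 3. The higher calls were 62, 77 and 73 without WT 0 h replicates 1, 2 and 3, 51 and 84 without WT 4 h replicates 2 and 3, and 86 and 35 without agb1 4 h replicates 2 and 3. The 2-fold higher genes were 524 without WT 4 h replicate 1. With normexp XTH29 (0.75) and PP2-B7 (0.70) turned in sign. Of 100 named calls, 9 kept their call with normexp and 62 with the slide as a block, and quantile scaling and the mean of probes each kept 96. Of the lower calls 32 were not well above background on any agb1 array, and of the higher calls 14 on any WT array, and such probes have only a bound. The causes of these shifts were not tested.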
